A study of Mus musculus with 6 samples.

Results

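The replication-dependent histone genes are the clustered genes that supply the histone proteins onto which DNA is packed as it is copied. They were chosen by name, as the genes whose mouse symbol begins with *Hist1h*, *Hist2h*, *Hist3h* or *Hist4h*, without the 1 symbol that ends in ps (*Hist3h2bb-ps*), and with 10 or more counts in at least 3 of the 6 libraries. Of 70 symbols with these beginnings 66 were kept, out of 54418 gene identifiers in the count table. They comprise 6 genes for the linker histone H1, 18 for H2A, 18 for H2B, 11 for H3 and 13 for H4. By the GRCm38 annotation 65 of them are protein-coding and 1, *Hist1h2al*, is listed as a processed pseudogene. Below the count rule lay *Hist1h2aj*, counted 8, 15 and 0 times in replicates 1 to 3 of *Glis2*+/+ and 0, 0 and 13 times in those of *Glis2*-/-, and *Hist2h2aa2* and *Hist2h3c1*, which had 0 counts in every library. Every stretch of read length in the longest annotated transcripts of *Hist2h2aa2* and *Hist2h3c1* also occurs in another gene. Their 0 counts therefore do not show that these genes are silent. *Hist1h2ao* passed the count rule narrowly, with 174, 11 and 0 against 60, 0 and 0 counts.

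The samples were mammary gland cells of 6 C57BL/6 females aged 4 weeks, 3 *Glis2*+/+ (WT control) and 3 *Glis2*-/- (Glis2 KO), with 1 library per mouse. *Glis2* encodes a zinc finger transcription factor of the Gli-similar family, and the mutant mice lacked it from the germline, so every cell of the gland and the body carried the mutation. Glands were dissociated overnight, stained with a viability dye, with antibodies to TER-119, CD31 and CD45 (erythroid, endothelial and leukocyte surface proteins) and with CD24 and CD49f antibodies, and sorted; the study calls the sequenced cells mammary epithelial cells, and a narrower gate was not given in the sources used here. The libraries were made from total RNA by a stranded kit that removes ribosomal RNA fragments and does not select for poly(A) tails, so that transcripts without a tail could be read.

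Total counts ranged from 24996524 to 31393917 per library, and the histone genes held between 0.155% and 0.234% of them. Levels below are CPM, counts scaled to the size of the library with edgeR's TMM factors for its composition, unless TPM is named, a level per transcript length. The targeted gene was checked first. *Glis2* stood at 21.7, 23.2 and 19.6 CPM in *Glis2*+/+ and at 10.1, 17.0 and 16.3 CPM in *Glis2*-/- libraries, so that its transcript was lower in each mutant but present, with a log2 fold change of -0.57 (edgeR adjusted p = 0.906). The labels do not say which part of the gene is removed. The 4 basal epithelial markers summed to between 1785 and 3169 CPM, and the 5 luminal markers to between 2806 and 5190 CPM. *Krt14* and *Krt5*, the keratins of basal cells, ranged from 327 to 631 and from 245 to 442 CPM. The 6 fibroblast markers summed to between 2293 and 7727 CPM, and the 5 endothelial markers to between 112 and 620 CPM. The 6 T and B cell markers summed to at most 17.4 CPM. Markers of other cell types were thus detected in every library. The fibroblast sum lay above the basal sum in replicates 1 and 3 of both genotypes. It lay above the luminal sum in *Glis2*+/+ replicates 1 and 3 and in *Glis2*-/- replicate 3.

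Histones H2A, H2B, H3 and H4 form the core of the nucleosome, and H1 binds the DNA that enters and leaves it. Cells make most of these proteins in S phase from many small genes without introns. The transcripts end in a conserved stem-loop rather than a poly(A) tail. SLBP binds this stem-loop, NPAT drives transcription of the clusters at the G1 to S transition, and the transcripts are degraded when DNA synthesis stops. Replacement histones, such as H2A.Z and H3.3, come from separate genes whose transcripts are polyadenylated and made throughout the cell cycle. Tissues with many dividing cells, such as the mammary gland at puberty, are rich in the replication-dependent transcripts.

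Most of the genes lie together. The annotation (GENCODE vM21, GRCm38) places 55 of the 66 on chromosome 13, 8 on chromosome 3, 2 on chromosome 11, and *Hist4h4* alone on chromosome 6. The transcript ends show the feature that defines the class. The stem-loop was searched in the annotated transcripts as a stem of 6 base pairs that begins with GG, closed by a loop of 4 bases. The search also required C or T at positions 3 and 6 of the stem and T at position 2 of the loop. A match was found in 42 of the 66 genes, against 0.286% of 141767 annotated transcripts, and 16 of the other 24 genes have no annotated transcript as long as 500 bases. The sites below are shown because the stem separates H4 from the other families. Capitals mark the stem-loop, and the bases on either side are in lower case, read from the annotated transcripts (mRNA sense, 5′ to 3′).
Hist1h1c: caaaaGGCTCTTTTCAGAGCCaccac
Hist2h2aa1: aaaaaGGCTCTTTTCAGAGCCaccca
Hist1h2bg: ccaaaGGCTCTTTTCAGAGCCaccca
Hist1h3b: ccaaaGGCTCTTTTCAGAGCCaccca
Hist1h4h: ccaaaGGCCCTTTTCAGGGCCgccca
Hist4h4: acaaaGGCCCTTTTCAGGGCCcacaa
Hist1h4b: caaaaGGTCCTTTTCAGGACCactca

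The stem that opens with GGCTCT was found in all 31 genes of the H1, H2A, H2B and H3 families that had a match, in 24 of them with the loop of the first sites shown. All 11 H4 genes with a match instead had GGCCCT (9 genes) or GGTCCT (2 genes, *Hist1h4b* among them). In 21 of the 42 genes the annotated transcript went on for more than 100 bases past the stem-loop. *Hist1h1c*, *Hist1h1e* and *Hist4h4* ran on for 840, 1153 and 2445 bases. The gene counts do not tell a form that ends at the stem-loop from a longer one.

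The promoters also differ by family. A RefSeq promoter (GRCm38.p6, 250 bases before to 50 bases after the start) was matched within 1000 bases of the annotated start for 58 of the 66 genes. Motifs were searched by their letters on both strands. CCAAT was present in all 5 H1, 16 H2A, 16 H2B and 9 H3 promoters but in 3 of 12 H4 promoters, and in 37.4% of all 32851 promoters. GGTCCG, which lies in a conserved element of H4 promoters, was present in 11 of 12 H4 promoters, in 2 of the other 46 and in 8.25% of all promoters. ATTTGCAT, the octamer that OCT1 binds, was found in 7 of 16 H2A and 6 of 16 H2B promoters, in 0 of the other 26 and in 1.74% of all. AAACACA, the H1 box, was found in 4 of 5 H1, 2 of 16 H2A and 2 of 16 H2B promoters and in 7.18% of all. TATAAA occurred in 34 of the 58 and in 13.6% of all. TTTCGCGC, a form of the E2F site, occurred in 9 of the 58 (5 H2A and 4 H2B) and in 0.323% of all. In *Hist1h3i* the GGTCCG match overlaps a CCAAT match. Promoters of divergent genes overlap, so their matches are not separate, and a match describes letters only. The 4 promoters below belong to the most abundant H1 gene, an H2B gene with CCAAT, the octamer and TATAAA, and the H4 genes with the smallest p-values below. Capitals mark the motifs found.
Hist1h1c (chr13:23738557-23738856, plus strand): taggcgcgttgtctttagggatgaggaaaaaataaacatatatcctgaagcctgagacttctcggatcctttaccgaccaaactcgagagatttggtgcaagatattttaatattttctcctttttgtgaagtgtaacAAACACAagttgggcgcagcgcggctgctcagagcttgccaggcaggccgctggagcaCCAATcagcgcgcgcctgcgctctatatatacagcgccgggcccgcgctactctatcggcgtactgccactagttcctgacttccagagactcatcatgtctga
Hist1h2bg (chr13:23571150-23571449, plus strand): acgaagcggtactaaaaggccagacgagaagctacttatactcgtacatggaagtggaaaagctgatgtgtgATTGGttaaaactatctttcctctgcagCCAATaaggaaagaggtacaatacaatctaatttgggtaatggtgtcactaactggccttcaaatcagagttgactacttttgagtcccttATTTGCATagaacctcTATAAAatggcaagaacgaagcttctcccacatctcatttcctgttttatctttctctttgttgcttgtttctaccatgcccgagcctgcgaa
Hist1h4h (chr13:23530794-23531093, plus strand): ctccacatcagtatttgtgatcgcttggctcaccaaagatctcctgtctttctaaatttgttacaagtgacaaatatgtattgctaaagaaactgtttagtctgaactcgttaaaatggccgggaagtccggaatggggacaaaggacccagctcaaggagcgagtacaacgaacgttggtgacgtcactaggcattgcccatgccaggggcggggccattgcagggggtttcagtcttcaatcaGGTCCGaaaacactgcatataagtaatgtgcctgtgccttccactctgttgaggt
Hist4h4 (chr6:136804382-136804681, minus strand): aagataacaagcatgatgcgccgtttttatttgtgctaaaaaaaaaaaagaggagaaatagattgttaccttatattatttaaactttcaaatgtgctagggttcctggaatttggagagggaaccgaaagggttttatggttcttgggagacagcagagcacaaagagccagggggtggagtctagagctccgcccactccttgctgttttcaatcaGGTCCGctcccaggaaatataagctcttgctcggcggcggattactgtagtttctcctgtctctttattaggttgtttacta

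The copies of a family are so alike that many stretches as long as a read occur in more than 1 gene. For each gene the 40-base windows (the length of 1 read) of its longest annotated transcript were compared with the annotated transcripts of all other genes. The share that occurred in no other gene was taken. The reads were sequenced in pairs, which a single window does not take into account. The median share was 98.0% for H1, 56.4% for H4, 48.2% for H2B, 38.9% for H3 and 28.5% for H2A. It was under 20% in 16 genes and over 80% in 12. Some near-copies were listed at very unequal counts between mice of a genotype. *Hist1h4m* was counted 218, 90 and 0 times in replicates 1 to 3 of *Glis2*+/+ and 233, 129 and 288 times in those of *Glis2*-/-. Its near-copy *Hist1h4n* had 14, 189 and 136 against 94, 227 and 140. *Hist1h3h* had 76, 122 and 47 against 75, 3 and 0. The counts of single genes with few windows of their own are therefore uncertain, and family sums, which do not depend on how reads were shared within a family, are given beside them.

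The 66 genes were expressed at very different levels. Per transcript length, H2A genes held 44.2% of the summed histone TPM, H1 genes 20.2%, H2B genes 19.3%, H3 genes 8.17% and H4 genes 8.09%, over all 6 libraries. The order of H3 and H4 differed by genotype: H3 lay above H4 in all 3 *Glis2*+/+ libraries (8.23% against 7.198%, 8.15% against 7.74% and 7.66% against 6.09%) and H4 above H3 in all 3 *Glis2*-/- libraries (9.26% against 7.72%, 8.18% against 8.14% and 10.1% against 9.12%). H2B lay above H1 in *Glis2*-/- replicates 1 (19.7% against 19.1%) and 3 (21.6% against 14.9%). The leading gene was *Hist1h1c*, a linker histone gene, at a mean of 72.5 TPM (9.97% of the histone TPM). It was followed by the H2A genes *Hist1h2ap* (66.5 TPM), *Hist1h2ai* (53.2 TPM) and *Hist2h2aa1* (49.2 TPM), and by *Hist1h1e* (35.4 TPM). The first H2B, H3 and H4 genes were *Hist2h2bb* (20.7 TPM), *Hist1h3i* (14.0 TPM) and *Hist1h4b* (12.03 TPM). By counts, which favour long transcripts, the 6 H1 genes held 52.7%. The sum over all genes therefore mostly follows H1.

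The summed histone level did not separate the genotypes. All 66 genes together reached 1903, 2343 and 1525 CPM in *Glis2*+/+ and 1636, 2138 and 2173 CPM in *Glis2*-/- replicates 1 to 3. The means were 1923 ± 409 and 1982 ± 300 CPM (SD, n = 3 mice each), a log2 ratio of *Glis2*-/- over *Glis2*+/+ of 0.04. This ratio turned to -0.02 with summed TPM, to -0.10 without *Glis2*+/+ replicate 3, to -0.01 without *Glis2*-/- replicate 2 and to -0.03 without *Glis2*-/- replicate 3, and its highest value with a mouse left out was 0.21. The 60 core histone genes, without H1, reached 900, 1032 and 652 against 800, 952 and 1228 CPM, a log2 ratio of 0.21. In both sums the mice of the genotypes overlapped.

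Among the family sums H4 had the largest log2 ratio. H1 summed to 1003, 1311 and 873 against 837, 1186 and 945 CPM (log2 ratio -0.10), a direction that turned to 0.08 without *Glis2*+/+ replicate 2 and to 0.0039 without *Glis2*-/- replicate 1. H4 summed to 89.0, 109 and 60.7 against 97.7, 115 and 164 CPM (log2 ratio 0.54), with means of 86.2 ± 24.2 and 125 ± 34.1 CPM (SD, n = 3). Its genotypes still overlapped, since the second *Glis2*+/+ mouse lay above the first *Glis2*-/- mouse. H2A summed to 451, 505 and 326 against 380, 444 and 563 CPM (log2 ratio 0.11). H2B summed to 235, 279 and 180 against 218, 270 and 322 CPM (log2 ratio 0.22), and H3 to 125, 139 and 84.7 against 105, 124 and 179 CPM (log2 ratio 0.23). In all 4 core families the lowest library was *Glis2*+/+ replicate 3 and the highest *Glis2*-/- replicate 3. Without *Glis2*+/+ replicate 3 the log2 ratios were -0.05 for H2A, 0.07 for H2B, 0.04 for H3 and 0.34 for H4. Without *Glis2*-/- replicate 3 they were -0.05, 0.08, -0.03 and 0.30. They were higher without *Glis2*+/+ replicate 2, at 0.25, 0.38, 0.37 and 0.74, and without *Glis2*-/- replicate 1, at 0.24, 0.36, 0.38 and 0.69. With summed TPM they were -0.07 for H2A, 0.16 for H2B, 0.04 for H3, 0.35 for H4 and -0.29 for H1. A comparison of 3 mice with 3 cannot give an exact two-sided permutation p below 0.1. In bulk samples fewer cells that make a transcript and less of it per cell cannot be told apart.

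**Figure D1:**
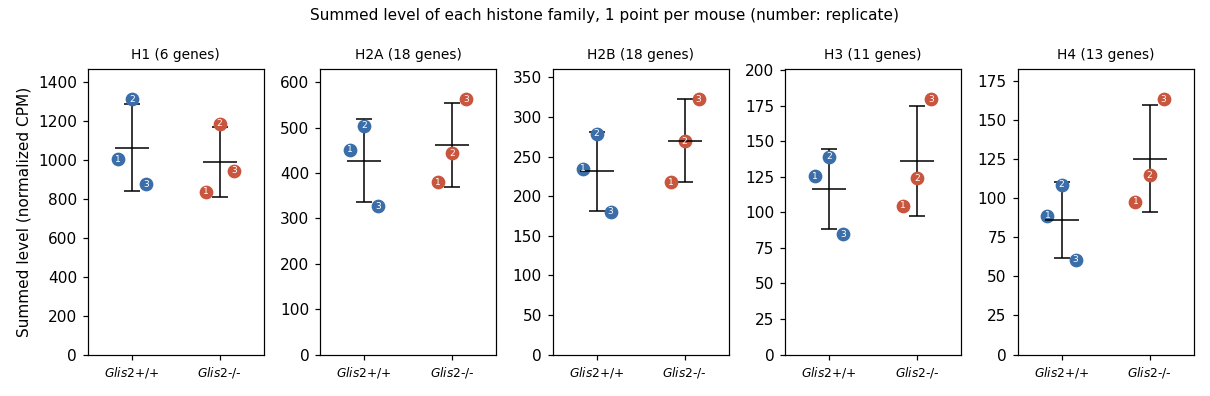
Summed TMM-scaled CPM of the H1, H2A, H2B, H3 and H4 genes (vertical axes from 0), with 1 numbered point per mouse by genotype, and bars for the mean and 1 SD. The points of the genotypes overlap in all 5 families, and in the core families replicate 3 of *Glis2*+/+ is lowest and replicate 3 of *Glis2*-/- is highest.

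The proportions of the families were compared within the core histones. H4 genes made up 9.90%, 10.6% and 9.32% of the core histone CPM in *Glis2*+/+ and 12.2%, 12.1% and 13.3% in *Glis2*-/- mice (means 9.92% ± 0.619 and 12.5% ± 0.681, SD, n = 3). H2A genes made up 50.1%, 48.9% and 50.1% against 47.5%, 46.6% and 45.8%. In both families the genotypes did not overlap. H2B genes made up between 26.1% and 28.3%, and H3 genes between 13.0% and 14.6%, and these overlapped. With TPM in place of CPM the H4 share was 9.04%, 9.87% and 7.99% against 11.5%, 10.4% and 11.8%, and the H2A share 56.8%, 56.5% and 59.5% against 54.7%, 53.4% and 52.1%, again without overlap. The H2B share also separated on that scale, at 23.8%, 23.2% and 22.5% against 24.3%, 25.9% and 25.3%. These shares were computed after the family sums had been seen. The 4 shares of a library add up to the whole, so they are not independent of each other.

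Gene by gene, 0 of the 66 histone genes passed both thresholds of the edgeR quasi-likelihood test (a Benjamini-Hochberg adjusted p no higher than 0.05 with a log2 fold change of 0.58 or more in size). Over all 21236 genes tested the number called was also 0 (0%). The smallest adjusted p of a histone gene was 0.906. At an unadjusted p under 0.05 there were 5 of 66, all higher in *Glis2*-/-, against 2.99% of all genes higher, 2.33% lower and 5.32% in either direction. DESeq2 called 48 of all genes by both thresholds and 0 of the 66, with 5 histone genes at an unadjusted p under 0.05, against 5.88% of all genes in that test. By the sign of the fitted log2 fold change 48 genes (72.7%) were higher in *Glis2*-/- and 18 lower, against 51.6% higher among all genes. The number higher was 37 (56.1%, against 51.7% of all genes) without *Glis2*+/+ replicate 3, 38 (57.6%, against 49.4%) without *Glis2*-/- replicate 3 and 37 (56.1%, against 32.0%) on log2(TPM + 1). The median was 0.26, against 0.01 over all genes. In 2 genes, *Hist1h2ae* and *Hist1h4h*, every *Glis2*-/- mouse lay above every *Glis2*+/+ mouse, against 6.23% of all genes. In 1, *Hist1h1t*, every *Glis2*+/+ mouse lay above, against 5.5% of all genes. Groups without overlap were thus not more frequent than in the background.

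By family the median log2 fold change was -0.08 for H1 (2 of 6 higher), 0.13 for H2A (14 of 18 higher), 0.29 for H2B (12 of 18), 0.04 for H3 (7 of 11) and 0.56 for H4 (13 of 13). The 13 H4 values ranged from 0.15 to 1.15. On log2(TPM + 1), where the median of all genes was -0.06, the medians were -0.25 for H1, -0.0080 for H2A, 0.05 for H2B, -0.12 for H3 and 0.30 for H4, so that H2A and H3 turned direction and 12 of 13 H4 genes were higher. When a mouse was left out, the H4 median lay between 0.35 and 0.89, with 11 of 13 higher without *Glis2*+/+ replicate 1 and without *Glis2*-/- replicate 3. The H3 median lay between -0.09 and 0.46. The H2A median was -0.05 without *Glis2*+/+ replicate 3, and the H1 median was 0.05 without *Glis2*+/+ replicate 2 and 0.02 without *Glis2*-/- replicate 1. Without *Glis2*+/+ replicate 3 the median over all 66 genes was 0.10, with 0 genes at an unadjusted p under 0.05 (4.13% of all genes), and without *Glis2*-/- replicate 3 it was 0.04, with 1 such gene (5.997% of all genes).

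**Figure D2:**
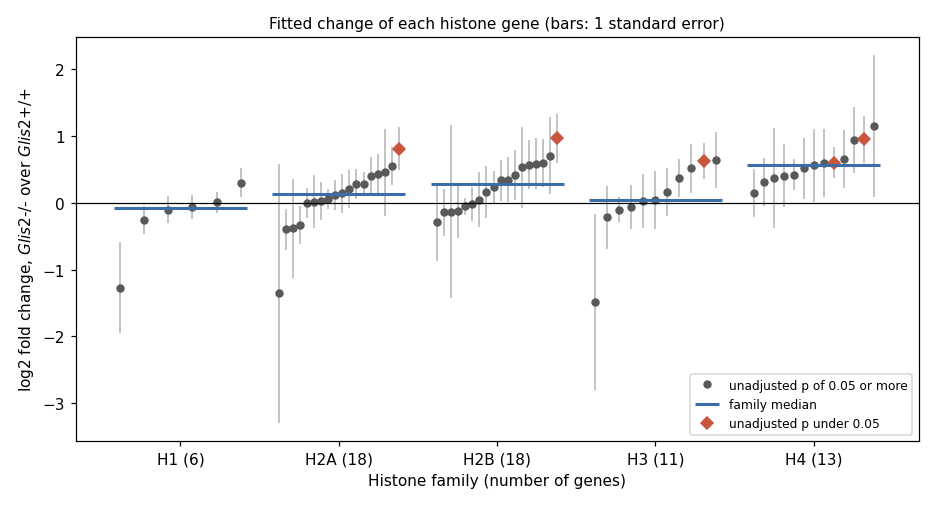
Fitted log2 fold change of each of the 66 genes by family, with 1 standard error; diamonds mark the 5 genes with an unadjusted p under 0.05 and horizontal lines the family medians. All 13 H4 genes lie above 0, and the H4 median of 0.56 is the highest of the 5 families.

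Of the H4 genes, *Hist1h4h* (chr13:23531050-23531519, plus strand) had 10.9, 10.9 and 7.25 CPM in *Glis2*+/+ and 13.3, 14.0 and 16.7 CPM in *Glis2*-/- mice, without overlap. Its log2 fold change was 0.60 ± 0.23 (SE; unadjusted p = 0.0276, edgeR adjusted p = 0.906). *Hist4h4* (chr6:136801553-136804415, minus strand) had 4.12, 5.53 and 4.11 against 4.84, 11.5 and 10.2 CPM, so that the first *Glis2*-/- mouse lay among the *Glis2*+/+ mice (0.95 ± 0.35, unadjusted p = 0.0263, edgeR adjusted p = 0.906). It lies outside the clusters, and 91.6% of its windows occur in no other gene, against a family median of 56.4%. *Hist1h4b*, the H4 gene with the highest TPM, had 10.8, 14.4 and 4.41 against 9.71, 10.8 and 21.7 CPM (0.51 ± 0.45). *Hist1h4k* had 6.48, 8.09 and 2.23 against 4.84, 7.04 and 10.4 CPM (0.41 ± 0.48). In both, *Glis2*+/+ replicate 3 was lowest, *Glis2*-/- replicate 3 highest, and the other 4 mice were mixed. With a mouse left out their values lay between 0.04 and 0.89 and between 0.03 and 0.77. *Hist1h4d*, outside the rule for named genes and chosen after its values were seen as the H4 gene with the most counts, had 30.7, 37.0 and 24.4 against 29.1, 40.9 and 53.2 CPM (0.42 ± 0.24), and 87.2% of its windows are its own.

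Among the H2B genes *Hist1h2bl* (chr13:21715763-21716143, minus strand) had 17.0, 9.45 and 10.5 against 14.2, 20.7 and 37.4 CPM, a log2 fold change of 0.96 ± 0.37 (SE; unadjusted p = 0.0299, edgeR adjusted p = 0.906). The high value came from *Glis2*-/- replicate 3, and the first mice of the genotypes were in the opposite order. With a mouse left out its log2 fold change lay between 0.48 and 1.26. Of its windows 13.2% are its own. *Hist2h2bb* had 18.0, 19.95 and 8.17 against 18.9, 16.5 and 33.3 CPM (0.57 ± 0.37). *Hist1h2bg* had 37.0, 45.1 and 28.7 against 29.2, 54.0 and 47.1 CPM (0.23 ± 0.25). In both genes the genotypes overlapped, and with a mouse left out the values lay between 0.18 and 0.80 and between 0.04 and 0.45.

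Among the H2A genes *Hist1h2ap* had 96.8, 104 and 70.2 against 70.8, 79.0 and 122 CPM (0.0014 ± 0.22), and its direction turned under several alternatives. *Hist1h2ai*, the divergent partner of *Hist1h2bl*, had 42.3, 57.4 and 33.7 against 38.8, 55.0 and 83.0 CPM (0.41 ± 0.28, between 0.06 and 0.64 with a mouse left out). *Hist2h2aa1* had 94.4, 99.5 and 72.4 against 79.3, 94.4 and 104 CPM (0.06 ± 0.15). Between 6.77% and 10.4% of the windows of these 3 genes are their own. *Hist1h2ad* had the second smallest p of the lower genes, with 9.24, 11.4 and 15.0 against 6.75, 12.9 and 7.41 CPM (-0.40 ± 0.31, unadjusted p = 0.229, edgeR). With a mouse left out it lay between -0.75 and -0.20. *Hist1h2ah* and the H3 gene *Hist1h3f*, which the rule did not name, complete the 5 with an unadjusted p under 0.05, at log2 fold changes of 0.81 ± 0.32 (edgeR, unadjusted p = 0.0345) and 0.63 ± 0.27 (edgeR, unadjusted p = 0.0443).

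The leading H3 gene *Hist1h3i* had 14.0, 16.6 and 5.95 against 12.4, 21.1 and 18.8 CPM (0.52 ± 0.37, between 0.19 and 0.80 with a mouse left out). *Hist1h3b* had 22.1, 15.4 and 9.52 against 13.6, 20.3 and 39.6 CPM (0.65 ± 0.42, between 0.10 and 0.96 with a mouse left out), again with *Glis2*-/- replicate 3 far above the other mice. *Hist2h3b* had 14.6, 16.2 and 14.6 against 7.51, 15.4 and 20.6 CPM (-0.07 ± 0.33), so that the *Glis2*+/+ mice were close together and the *Glis2*-/- mice lay on both sides of them.

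In the leading H1 genes the mice stood in another order than in the core families. *Hist1h1c* (chr13:23738808-23740367, plus strand) had 427, 593 and 399 against 393, 563 and 401 CPM (-0.06 ± 0.19). *Hist1h1e* had 292, 403 and 241 against 207, 320 and 255 CPM (-0.26 ± 0.21, between -0.44 and -0.03 with a mouse left out), and *Hist1h1b* 90.6, 76.0 and 57.0 against 56.9, 64.6 and 86.8 CPM (-0.10 ± 0.20). In *Hist1h1c* and *Hist1h1e* the second mouse of each genotype was the highest. *Hist1h1b*, with no stem-loop match in its annotated transcript, had its highest *Glis2*-/- value in replicate 3, as the sums of the core families did. *Hist1h1t*, the testis linker histone, was close to absent, at 1.65, 1.19 and 0.921 against 0.719, 0.200 and 0.639 CPM (-1.27 ± 0.68, unadjusted p = 0.0986, edgeR adjusted p = 0.92).

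Across the histone genes 1 mouse of each genotype stood apart. Relative to its own mean over the 6 mice on log2(CPM + 0.5), the median histone gene lay at 0.02, 0.24 and -0.49 in *Glis2*+/+ and at -0.09, 0.04 and 0.44 in *Glis2*-/- replicates 1 to 3. *Glis2*+/+ replicate 3 was the lowest library in 40 of the 66 genes (60.6%, against 17.9% of all genes), and *Glis2*-/- replicate 3 the highest in 34 (51.5%, against 16.8%). Among mice of a genotype the median gene had a coefficient of variation of 33.3%, against 18.4% for the sum of all 66. Across the 66 genes, which share libraries, the coefficient was lower in genes with more counts (Spearman rho -0.62) and was weakly related to the share of windows of its own (rho -0.13). Its medians were 31.6%, 36.9% and 30.0% in genes with under 20%, 20% to 80% and over 80% of their own windows. The largest, 173%, belonged to *Hist1h2ao*, with 6.35% of its own windows, and the smallest, 9.89%, to *Hist1h2bc*.

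**Figure D3:**
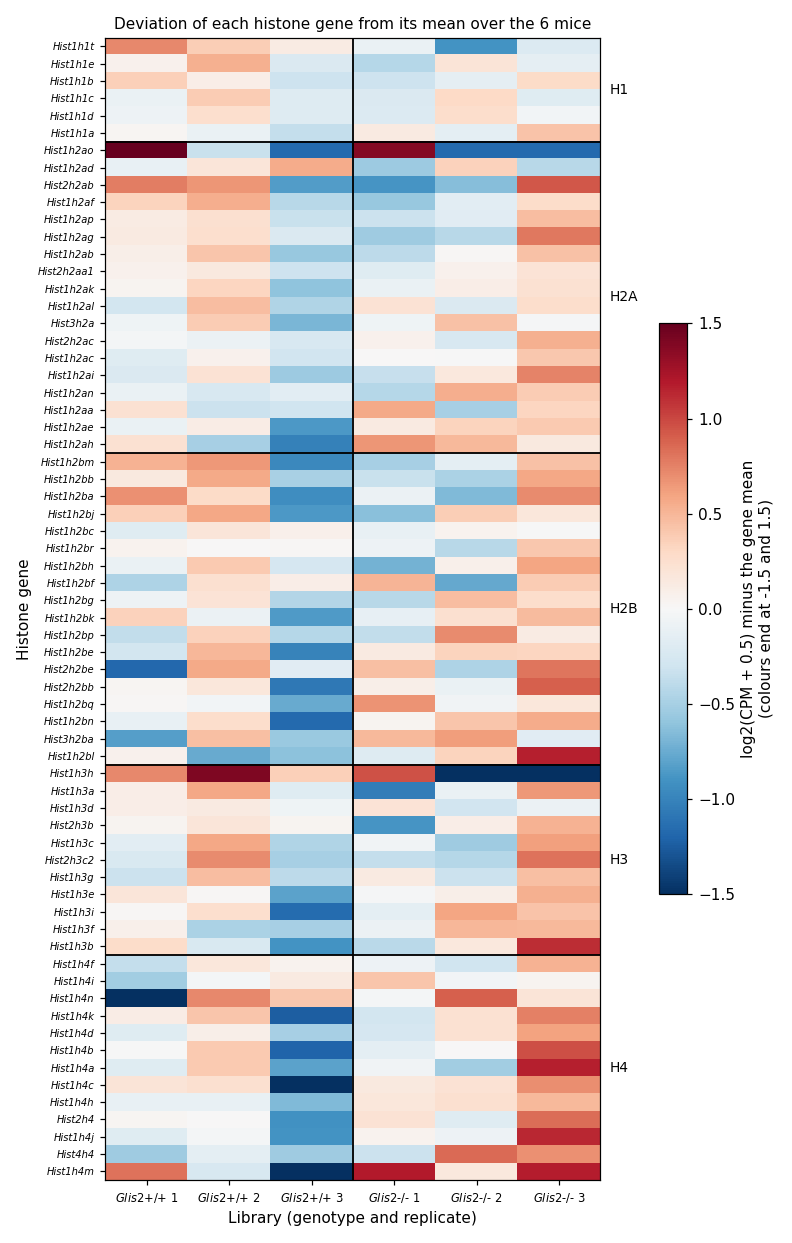
Deviation of each of the 66 genes (rows, by family and then by fold change) from its own mean over the 6 mice, on log2(CPM + 0.5), with 1 column per library; red is above and blue below the mean. The column of *Glis2*+/+ replicate 3 is mostly blue and that of *Glis2*-/- replicate 3 mostly red.

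**Figure D4:**
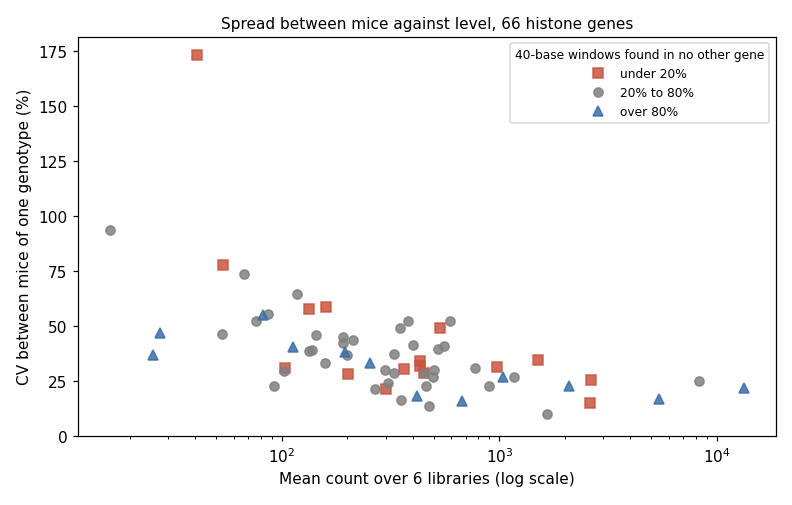
Coefficient of variation between mice of one genotype (vertical axis, percent) against the mean count over 6 libraries (horizontal axis, log scale) for the 66 genes, with symbols for the share of 40-base windows found in no other gene. The genes with the widest spread have few counts, and the 3 symbol classes overlap.

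Many H2A and H2B genes are transcribed away from each other from a shared stretch of DNA. Among the 66 genes 13 such pairs with starts within 1000 bases were found, 12 of H2A with H2B, with starts 176 to 306 bases apart, and 1 of H2B with H3. In 7 of the 13 pairs both genes were higher in *Glis2*-/-, and in the other 6 the signs differed. The level of the higher partner was a median 2.47 times that of the lower, by TPM. *Hist1h2bl* and *Hist1h2ai* were both higher (0.96 and 0.41), whereas *Hist1h2ad* was lower (-0.40) and its partner *Hist1h2bf* higher (0.16).

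Most S phase and mitosis genes were lower in *Glis2*-/-. The 40 S phase genes encode the helicase, polymerases and nucleotide enzymes of DNA synthesis, other replication factors, and cell cycle regulators such as cyclin E2. In *Glis2*-/- 38 were lower, 16 of them with an unadjusted p under 0.05, against 2.33% of all genes lower at that p. By sign 2 of the 40 were higher, against 51.6% of all genes. Their median log2 fold change was -0.39. Their sum was 1744, 1900 and 1546 CPM in *Glis2*+/+ and 1273, 1222 and 1483 CPM in *Glis2*-/- mice, without overlap. Of 22 mitosis genes all 22 were lower, 12 with an unadjusted p under 0.05, against 2.33% of all genes lower at that p. Their median was -0.54, and -0.30 without *Glis2*+/+ replicate 2, the highest library in 21 of the 22. Their sum was 2250, 2710 and 1741 against 1444, 1393 and 1772 CPM, so that *Glis2*-/- replicate 3 lay above *Glis2*+/+ replicate 3. None of the 62 passed the adjusted threshold, where the smallest adjusted p was 0.906. *Mki67*, a marker of cycling cells, had 924, 1086 and 727 against 551, 568 and 705 CPM (-0.59 ± 0.16, unadjusted p = 0.00531, edgeR). *Mcm2*, a helicase subunit, had 63.8, 75.4 and 68.9 against 48.6, 45.1 and 65.1 CPM (-0.39 ± 0.16). *Pcna*, the polymerase clamp, and *Ccne2*, cyclin E2, were closer together, at -0.07 ± 0.11 and -0.16 ± 0.25.

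Set against the S phase genes of the same library, core histone transcripts were higher in every *Glis2*-/- mouse. The ratio of the summed core histone CPM to the summed S phase CPM was 0.516, 0.543 and 0.422 in *Glis2*+/+ and 0.628, 0.779 and 0.828 in *Glis2*-/- mice, with means of 0.493 ± 0.0636 and 0.745 ± 0.104 (SD, n = 3). The log2 ratio was 0.59, between 0.49 and 0.70 when any 1 mouse was left out and 0.61 with summed TPM. Over the mitosis genes the ratio was 0.400, 0.381 and 0.374 against 0.554, 0.684 and 0.693. The H4 ratio over S phase genes was 0.0510, 0.0573 and 0.0393 against 0.0768, 0.0940 and 0.110, and the genotypes did not overlap for H2A, H2B or H3 either. The H1 ratio was 0.575, 0.690 and 0.565 against 0.657, 0.970 and 0.637 and overlapped, whereas over the mitosis genes H1 gave 0.446, 0.484 and 0.502 against 0.5795, 0.852 and 0.533, without overlap. The lower S phase sum (log2 ratio -0.38) had a larger part in the core histone ratio than the core histone sum (0.21). Replacement histones, whose own sum had a log2 ratio of 0.0039, gave log2 ratios of 0.41 over the S phase and 0.55 over the mitosis genes, with overlap in both. These ratios were chosen after the sums had been seen, a library's scaling cancels in them, and 3 mice against 3 give an exact two-sided permutation p of at least 0.1.

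**Figure D5:**
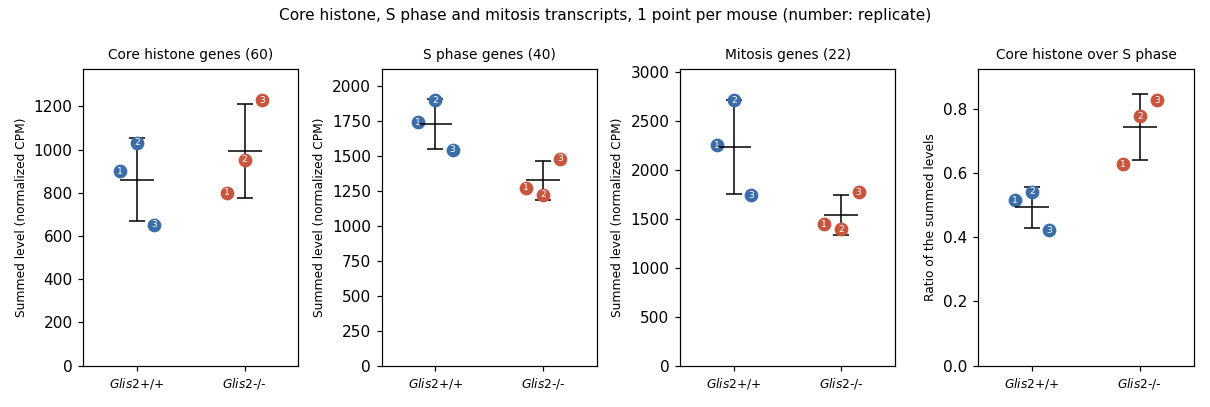
Summed CPM of the 60 core histone genes, 40 S phase genes and 22 mitosis genes, and the ratio of the first to the second (vertical axes from 0), with 1 numbered point per mouse and bars for the mean and 1 SD. The core histone sums overlap between genotypes, the S phase sums are lower in every *Glis2*-/- mouse, and the ratio is higher in every *Glis2*-/- mouse.

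Genes that make, trim and degrade histone transcripts were close between genotypes. Of 27 genes for histone transcript processing and decay 23 were lower, 0 with an unadjusted p under 0.05 (median -0.10, between -0.13 and -0.05 with a mouse left out). By sign 4 of the 27 were higher, against 51.6% of all genes. The sum of the 27 genes was 1508, 1520 and 1487 against 1416, 1450 and 1427 CPM, a separation without overlap but a log2 ratio of -0.07. *Slbp*, for the stem-loop binding protein, had 53.5, 43.6 and 43.6 against 47.0, 47.8 and 39.1 CPM (-0.07 ± 0.14). *Npat* had 53.0, 57.7 and 55.9 against 47.4, 55.0 and 57.8 CPM (-0.06 ± 0.12). *Casp8ap2*, for the NPAT partner FLASH, was at -0.20 ± 0.11 (unadjusted p = 0.0973, edgeR), and the U7 particle genes *Lsm10* and *Lsm11* at -0.14 ± 0.37 and 0.06 ± 0.29. *Zfp473*, a further U7 partner, was at -0.76 ± 0.55.

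Of 22 histone chaperone genes 17 were lower, 7 with an unadjusted p under 0.05 (median -0.19), against 2.33% of all genes lower at that p. By sign 5 of the 22 were higher, against 51.6% of all genes. *Nasp*, which stores H3 and H4, had 147, 148 and 144 against 103, 100 and 131 CPM (-0.39 ± 0.12, unadjusted p = 0.0113, edgeR adjusted p = 0.906). *Chaf1a*, which loads H3 and H4 onto new DNA, had 51.0, 53.5 and 53.2 against 42.6, 40.1 and 44.1 CPM (-0.32 ± 0.11). *Asf1b*, which hands over H3 and H4, had 6.61, 10.5 and 5.79 against 4.04, 5.37 and 3.67 CPM (-0.81 ± 0.32). Every *Glis2*-/- mouse lay below every *Glis2*+/+ mouse in these 3 genes. This held for 8 of the 22 chaperone genes, against 5.5% of all genes. The 11 replacement histone genes had 5 higher and 6 lower members (median -0.02, between -0.07 and 0.04 with a mouse left out, 0 with an unadjusted p under 0.05). *H3f3a* and *H3f3b*, both for H3.3, were at 0.08 ± 0.09 and 0.0064 ± 0.22, *H2afz* at -0.02 ± 0.12, *H2afx* at -0.18 ± 0.20 and *H1f0* at -0.03 ± 0.15.

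Cell type markers and other RNA classes also differed between the libraries. The summed level of the 4 basal epithelial markers was lowest in *Glis2*+/+ replicate 3 and highest in *Glis2*-/- replicate 3, as the core histone sums were, at 2399, 2334 and 1785 against 2743, 2610 and 3169 CPM. By gene, 3 of the 4 were lowest in the former library and 3 of the 4 highest in the latter. All 4 were higher in *Glis2*-/- (median 0.43). The 5 luminal markers summed to 2939, 5040 and 4113 against 4274, 5190 and 2806 CPM, and 5 of the 5 were lowest in *Glis2*-/- replicate 3. The 6 lymphocyte markers, all higher, summed to 7.00, 3.05 and 4.14 against 13.3, 10.8 and 17.4 CPM, without overlap but lowest in *Glis2*+/+ replicate 2, where the core histone sum was the highest of its genotype. The 5 macrophage and monocyte markers summed to 33.8, 17.6 and 29.2 against 33.5, 29.2 and 63.5 CPM, and the 5 erythroid markers to 8.07, 2.91 and 7.68 against 7.79, 5.01 and 14.0 CPM, both highest in *Glis2*-/- replicate 3. The 6 fibroblast markers summed to 7356, 2293 and 7727 against 4256, 2585 and 5884 CPM. The 5 endothelial markers summed to 603, 112 and 426 against 382, 173 and 620 CPM. In both lists replicate 2 was the lowest of each genotype. The genes for small structural RNAs without poly(A) tails (snRNA, snoRNA, scaRNA, misc_RNA and ribozyme genes) were higher in 152 of 205 cases (74.1%, median 0.36), against 51.6% of all genes. Their sums were 2823, 3410 and 3407 against 4777, 4843 and 5782 CPM, without overlap but lowest in *Glis2*+/+ replicate 1. The 188 other protein-coding genes without a transcript of 700 bases or more had a median of 0.06, and the 14952 longer ones 0.01. The part of cell makeup and of RNA class in the histone values was not tested.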

How the data were processed

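Paired reads of 40 bases were quantified by the authors with Salmon 1.2.1 on an mm10 transcriptome (Ensembl release 100) with the genome as decoy. From these tximport gave the deposited estimated counts per gene, whole numbers without normalization, and log2 values of TPM + 1. Of 54418 gene identifiers 54166 matched the GENCODE vM21 annotation, and the rest stayed in the fit without a symbol. Counts were tested with edgeR 4.0.16 (R 4.3.3; filterByExpr, TMM, quasi-likelihood test, 3 against 3 mice, Benjamini-Hochberg adjustment over 21236 genes), called at an adjusted p no higher than 0.05 with a log2 fold change of 0.58 or more in size. The functions were tested on simulated data. Alternatives were DESeq2 1.42.0 and its size factors, other count filters, the log2 TPM values in limma 3.58.1, a replicate block and each mouse left out.

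Named were the 3 genes of each family with the highest mean TPM, the 3 of each direction with the smallest p, any with adjusted p of at most 0.05, and 18 genes of the context lists (*Mcm2* is on 2 of these), with *Krt5* and *Krt14* named outside this rule as a check of the cell type. The histone genes, context lists and tests were chosen with earlier results of these data known. The labels do not say whether replicate numbers pair the mice, which were treated as unpaired. Same-numbered deviations correlated at -0.0218, 0.173 and 0.0233, which cannot settle it. No library was a copy of another (chi-square per degree of freedom of at least 20.3). The p-values measure the spread between 3 mice of a genotype. The gene *Gm23935*, held between 83.0% and 85.7% of a library's TPM, which scales all TPM values. RefSeq protein sequences were not used here.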

Additional observations from a re-analysis of the deposited data

How the results depend on the processing

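No histone gene reached an adjusted p of 0.05 in the edgeR test or in any of its 13 alternatives, and 13 of the 18 named histone genes kept their direction in all of them. The number of histone genes with an unadjusted p under 0.05, 5 in the edgeR test, was 8 without a filter on low counts (5.36% of all genes), 3 on log2(TPM + 1), 2 of them higher (6.70% of all genes), 4 with the replicate block (6.06%) and between 0 and 9 when a mouse was left out: 0 without *Glis2*+/+ replicate 3 (4.13%), 1 without *Glis2*-/- replicate 3 (5.997%), 3 without *Glis2*-/- replicate 2 (4.58%), 2 of them higher, and 9 without *Glis2*-/- replicate 1 (3.61%), 7 of them higher; the cause was not tested. The replicate block, which pairs mice by number only, changed no call by the thresholds. The median log2 fold change of the 66 genes ranged from 0.04 to 0.39 when a mouse was left out, and on log2(TPM + 0.1) it was 0.08 beside a median of -0.14 over all genes. Directions turned when a mouse was left out in *Hist1h1c* (range -0.26 to 0.13; 0.13 without *Glis2*+/+ replicate 2, 0.02 and 0.0019 without *Glis2*-/- replicates 1 and 3), in *Hist1h1b* (range -0.31 to 0.046; 0.046 without *Glis2*+/+ replicate 1, 0.02 without *Glis2*-/- replicate 1) and in *Hist2h3b* (range -0.42 to 0.24; 0.24 without *Glis2*-/- replicate 1). *Hist1h2ap* turned to -0.0066 with DESeq2 and with its size factors, -0.0034 without a filter, -0.015 with at least 10 counts in every library, -0.20 on both TPM scales, -0.024 with the replicate block, and -0.15 and -0.29 without *Glis2*+/+ and *Glis2*-/- replicate 3 (range -0.29 to 0.15). *Hist2h2aa1* turned to -0.11 on both TPM scales and to -0.067 and -0.046 without the same mice (range -0.067 to 0.16). The core histone to S phase ratio (log2 0.59) was between 0.49 and 0.70 when a mouse was left out. The spread between mice of a genotype, as edgeR's biological coefficient of variation, was 37.4% over all genes.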
